A study of Homo sapiens with 4 samples.

Results

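Interferon-stimulated genes (ISGs) are the transcripts that cells switch on when interferon reaches its receptors, and they encode much of the innate defense against viruses. Receptors for type I and type III interferon work through the kinases JAK1 and TYK2, and the type II receptor through JAK1 and JAK2, and these kinases phosphorylate STAT proteins. STAT2 and IRF9 are parts of the complex ISGF3, which binds interferon-stimulated response elements (ISREs) in ISG promoters. ISG products include sensors of foreign RNA and DNA, effectors that block steps of viral replication, and regulators that amplify or limit the response, and many tumor lines keep a basal level of them.

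A list of 40 ISGs was looked up by gene symbol in the deposited table, which has 20372 rows, and all 40 were found. By their known roles 9 were taken as sensors, 21 as effectors and 10 as regulators. RNA sequencing had been performed on TPC1 cells, a papillary thyroid cancer line that carries the CCDC6-RET fusion, in 4 libraries. In 2 libraries the cells had received the RET inhibitor BLU6864 for 6 h, and in 2 they had received the vehicle DMSO. All cells were grown in DMEM with serum and carry the fusion, and TPC1 is 1 line, so the libraries describe this line only. In the labels the dose of BLU6864 is 100 micromolar, whereas the study's methods give 100 nM for the sequenced TPC1 cells, so the dose is not settled. The labels give no time for DMSO, but its columns in the deposited table are named for 24 h. An effect of BLU6864 and an effect of the time in culture therefore cannot be told apart here. The titles of the BLU6864 libraries are also marked as a re-analysis, and the DMSO titles are not. The labels do not say whether replicates were separate cultures, so p-values measure the spread between these libraries, which may be technical.

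Library totals ran between 23750509 and 28305571 reads over the 4 libraries. RET, the target of the inhibitor, had 1457 and 1386 normalized counts (reads divided by the authors' size factor of each library) in BLU6864 libraries, against 1454 and 1310 in DMSO libraries, so its transcript does not check the labels. Of the thyroid markers PAX8 was abundant, TG and FOXE1 were detected, NKX2-1 and TSHR had no read in any library, and SLC5A5 had at most 7. The leukocyte marker CD3E and the fibroblast markers COL3A1 and DCN had no read. The summed normalized counts of 5 leukocyte markers were 50.4 and 44.0 in BLU6864 libraries, against 22.9 and 23.0 in DMSO libraries, and most of that sum was CD14. The 4 fibroblast markers summed to 547 and 571 in BLU6864 libraries, against 387 and 347 in DMSO libraries, and the 7 thyroid markers to 20578 and 22019 in BLU6864 libraries, against 28272 and 26855 in DMSO libraries. The 6 epithelial markers summed to 3032 and 2911 in BLU6864 libraries, against 4336 and 3723 in DMSO libraries. They did not move together. KRT18 fell (log2 fold change -1.02 ± 0.11, adjusted p = 3.52e-08) and KRT7 rose (0.41 ± 0.16, adjusted p = 0.0381). KRT8 and KRT19 were not called, and EPCAM and CDH1 had too few reads to test. The 2 endothelial markers summed to 17.9 and 10.3 in BLU6864 libraries, against 3.66 and 6.57 in DMSO libraries. In each of these 5 sums the groups lay apart. The part of these marker levels in the results on ISGs was not tested.

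The ISRE was searched as GAAA, any 2 bases and GAAA again, or TTTC, any 2 bases and TTTC on the other strand, in RefSeq promoter windows of GRCh38.p14 that run from 250 bases before to 50 bases after a transcription start. Of the 40 ISGs, 31 matched the table, DDX58 under its newer symbol RIGI. Of these, 22 (71.0%) held at least 1 match, against 1255 of all 35116 promoters (3.57%) and 1195 of the 27305 genes (4.38%). More than 1 match was found in 13. Stretches around the matches of 9 genes are shown, 5′ to 3′ on the strand of the gene, because these genes recur in the comparisons. Capitals mark the matches, and a run of capitals longer than 10 letters is a pair of overlapping matches. The first set lies next to the starts of the IFIT cluster, where IFIT1 at chr10:89392487-89392549 and IFIT3 at chr10:89327821-89327904 rose and IFIT5 at chr10:89414503-89414587, all on the plus strand, was not called.
IFIT1: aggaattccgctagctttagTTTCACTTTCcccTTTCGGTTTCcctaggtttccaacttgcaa
IFIT3: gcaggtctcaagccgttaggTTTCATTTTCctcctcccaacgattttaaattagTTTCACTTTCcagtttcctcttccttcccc
IFIT5: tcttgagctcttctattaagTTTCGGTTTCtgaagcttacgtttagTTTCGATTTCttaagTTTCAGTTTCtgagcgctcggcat
The second set comes from 3 further genes that rose, the RNA sensor IFIH1 at chr2:162318676-162318863 on the minus strand, and HERC5 at chr4:88456974-88457074 and DTX3L at chr3:122564312-122564357 on the plus strand.
IFIH1: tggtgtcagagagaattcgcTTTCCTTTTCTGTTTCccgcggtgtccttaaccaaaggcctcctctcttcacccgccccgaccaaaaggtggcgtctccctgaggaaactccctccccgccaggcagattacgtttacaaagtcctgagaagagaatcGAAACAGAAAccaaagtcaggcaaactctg
HERC5: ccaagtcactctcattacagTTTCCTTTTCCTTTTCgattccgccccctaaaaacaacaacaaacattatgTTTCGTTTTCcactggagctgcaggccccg
DTX3L: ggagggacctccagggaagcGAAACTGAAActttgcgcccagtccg
The last set comes from ISG15 at chr1:1013364-1013419, which was not called, and from OAS3 at chr12:112938311-112938491 and ISG20 at chr15:88638927-88638976, which fell, all on the plus strand.
ISG15: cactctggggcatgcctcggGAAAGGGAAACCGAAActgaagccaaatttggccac
OAS3: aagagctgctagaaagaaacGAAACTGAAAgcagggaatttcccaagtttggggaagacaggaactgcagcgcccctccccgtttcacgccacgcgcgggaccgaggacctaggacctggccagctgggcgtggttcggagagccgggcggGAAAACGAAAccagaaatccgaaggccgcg
ISG20: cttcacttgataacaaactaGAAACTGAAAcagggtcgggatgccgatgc
The sequences are those of RefSeq. A match is a stretch of letters and not a measured binding site.

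After BLU6864, a subset of ISGs was higher, by up to 3.29-fold for the low-count gene CMPK2. A larger number showed little difference or none that passed the test. Of the 40 genes 37 had enough reads to be tested with edgeR's quasi-likelihood test over all 12696 genes that passed its filter, and a gene was called at a Benjamini-Hochberg adjusted p under 0.05. In all, 16 of 37 (43.2%) were higher and 2 (5.41%) were lower, 18 (48.6%) together. Of all tested genes 20.3% were higher and 22.0% were lower, 42.2% together. The share called in either direction was thus near that of all tested genes. The median log2 fold change was 0.28 over the 37 ISGs and 0.01 over all tested genes. The log2 fold change was above 0 in 28 of the 37 and below 0 in 9. Both BLU6864 libraries lay above both DMSO libraries for 23 ISGs and below them for 5, with 35.1% and 35.7% of all tested genes in these positions, 70.8% together. The counts moved with the libraries used. Without BLU6864 replicate 1, 9 ISGs were higher, or 24.3%, against 11.7% of all genes then tested, and without BLU6864 replicate 2 there were 12, or 32.4%, against 9.75%. Without DMSO replicate 1 there were 15 (40.5%, against 19.9%), and without DMSO replicate 2 there were 24 (64.9%, against 25.4%). The median log2 fold change of the ISGs was 0.35 without BLU6864 replicate 1 and 0.34 without BLU6864 replicate 2. It was 0.20 without DMSO replicate 1 and 0.38 without DMSO replicate 2. CMPK2 and OAS2 passed the filter on low counts only through the BLU6864 libraries, so their place among the tested genes depends on the group in which they are high. In bulk RNA, more RNA per cell and more cells that express a gene cannot be told apart.

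**Figure D1:**
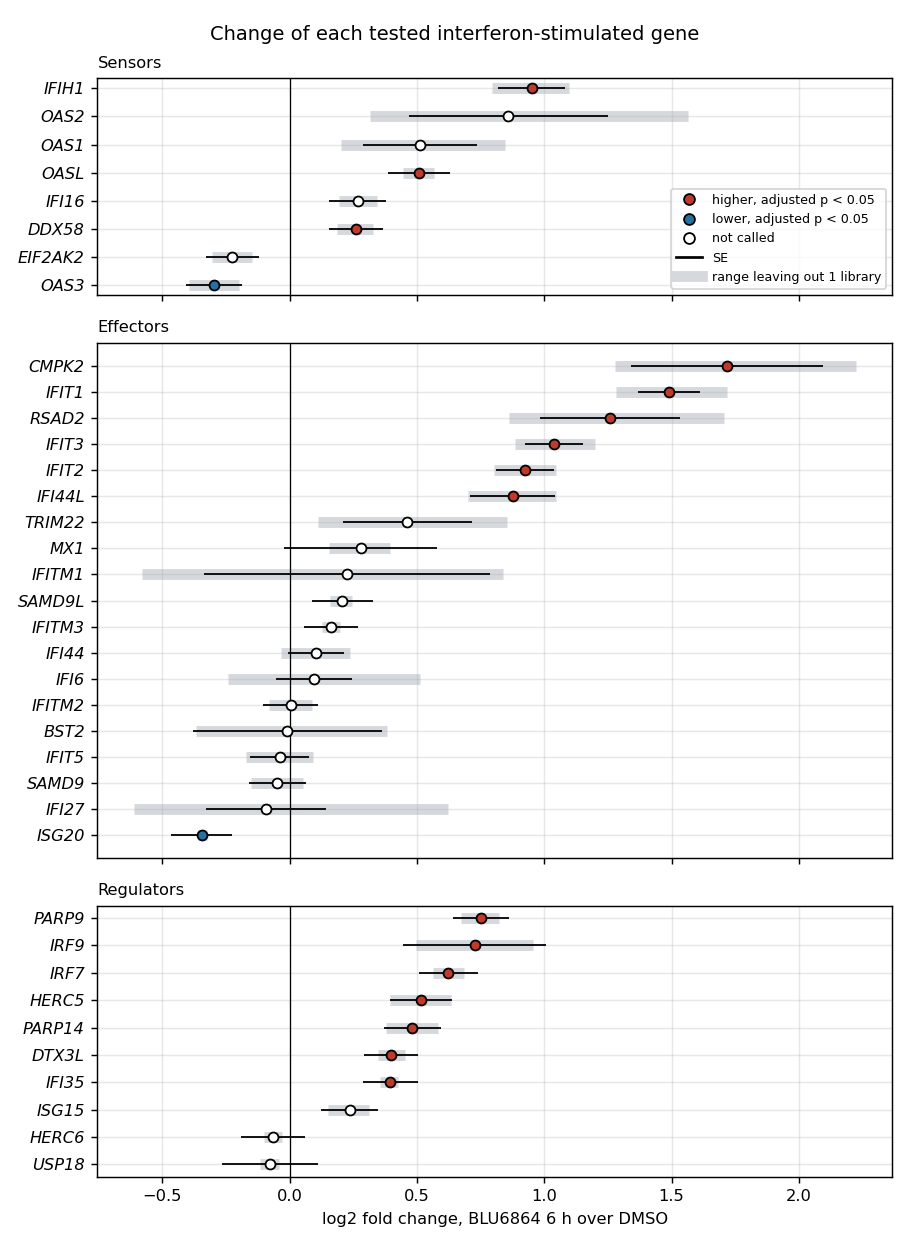
Log2 fold change of each of the 37 tested ISGs, BLU6864 at 6 h over DMSO (horizontal axis), in panels for sensors, effectors and regulators. Points are filled red where higher, blue where lower and white where not called, black lines are SE, and grey bars span the values obtained when 1 library was left out. Red points number 3, 6 and 7 in the 3 panels, and CMPK2, at 1.72, lies farthest to the right.

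By role, 7 of 10 regulators, 6 of 19 tested effectors and 3 of 8 tested sensors were higher (31.6% of the effectors and 37.5% of the sensors, where 20.3% of all tested genes were). The lower genes were 1 effector and 1 sensor (5.26% and 12.5%, where 22.0% of all tested genes were). In either direction 36.8% of the effectors were called, a share below the 42.2% of all tested genes. The median log2 fold changes were 0.44 for regulators, 0.21 for effectors and 0.39 for sensors. The role groups were not compared by a test. The calls of 9 ISGs, IFIH1, IFIT1, IFIT2, IFIT3, RSAD2, CMPK2, IFI44L, IRF7 and PARP9, held under every alternative tried, and all 9 were higher. CMPK2 is among them although it passed the filter on low counts only through the BLU6864 libraries. Of the 9, IFIH1 is a sensor, IRF7 and PARP9 are regulators and the rest are effectors. The larger share of regulators called higher thus did not extend to the calls that held.

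Per length the ISGs covered a wide range. Length here is the merged exons of all annotated transcripts, such as 2.84 kb for IFITM3 and 18.0 kb for MX1. The order of the genes therefore depends in part on the annotation. IFITM3, IFI6 and IFI16 had the highest levels, at 1194, 1167 and 1144 normalized counts per kb of exon averaged over the 4 libraries. ISG15 followed at 915. IFIT3 and IFIT1 had 565 and 502 on the same scale. These highly expressed genes included both genes that rose and genes that were not called. RSAD2, IRF9, CMPK2, TRIM22, OAS1, OAS2 and MX1 all lay under 10 per kb, so their changes rest on few reads. DHX58, MX2 and XAF1 were too low to test.

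Among the effectors, the IFIT genes of the cluster on chromosome 10 had the smallest adjusted p-values. IFIT proteins bind viral or otherwise foreign RNA and block its translation. IFIT1 (ENSG00000185745, hg19 chr10:91152303-91163745) had 3529 and 3302 normalized counts in BLU6864 libraries, against 1037 and 1404 in DMSO libraries. The groups were far apart, and the log2 fold change was 1.49 ± 0.12 (SE, adjusted p = 1.48e-10). IFIT3 (ENSG00000119917, hg19 chr10:91087651-91100728), a partner that stabilizes IFIT1, had 4012 and 3689 normalized counts in BLU6864 libraries, against 1678 and 2082 in DMSO libraries. It was 2.06-fold higher, without overlap (log2 fold change 1.04 ± 0.11, adjusted p = 3.64e-08). IFIT2 (ENSG00000119922, hg19 chr10:91061712-91069033) had 1861 and 1638 normalized counts in BLU6864 libraries, against 848 and 1002 in DMSO libraries. Its log2 fold change was 0.92 ± 0.11 (adjusted p = 2.15e-07), again with all BLU6864 values above all DMSO values. IFIT5 (ENSG00000152778, hg19 chr10:91174343-91180758), which also binds RNA, had 1023 and 908 normalized counts in BLU6864 libraries, against 906 and 1085 in DMSO libraries. The groups overlapped fully and IFIT5 was not called (log2 fold change -0.04 ± 0.12, adjusted p = 0.808).

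In the table, the span of LIPA, a gene for a lysosomal lipase, contains those of IFIT1, IFIT2 and IFIT3. LIPA averaged 9752 normalized counts in BLU6864 libraries and 7739 in DMSO libraries, a log2 fold change of 0.34 ± 0.12 (adjusted p = 0.0211). The strand setting of the counting is not given in the sources used here, so reads shared between LIPA and the IFIT genes could not be assessed.

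The ratio of paralogs within each library does not depend on library scaling. The ratio of IFIT1 to IFIT5 raw counts was 3.45 and 3.64 in BLU6864 libraries, against 1.14 and 1.29 in DMSO libraries. For IFIT3 over IFIT5 it was 3.92 and 4.07 in BLU6864 libraries, against 1.85 and 1.92 in DMSO libraries. The ratio of IFIT2 to IFIT5 was 1.82 and 1.80 in BLU6864 libraries, against 0.935 and 0.923 in DMSO libraries. In each of these the groups were separated by more than the spread between replicates, although an exact permutation test of 2 against 2 libraries cannot go below p = 0.333, and none was run. Ratios for other pairs also lay higher in both BLU6864 libraries. HERC5 over HERC6, neighbors on chromosome 4, gave 2.23 and 1.98 in BLU6864 libraries and 1.39 and 1.42 in DMSO libraries. IFI44L over IFI44, neighbors on chromosome 1, gave 0.122 and 0.139 in BLU6864 libraries and 0.0748 and 0.0789 in DMSO libraries. SAMD9L over SAMD9 and IFITM3 over IFITM2 differed least, with a BLU6864 ratio 1.19 and 1.12 times the DMSO one. The pairs were chosen with the results known, and the gene with the larger log2 fold change was the numerator of each. The shared direction of the ratios therefore follows from that choice and is not a separate result.

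**Figure D2:**
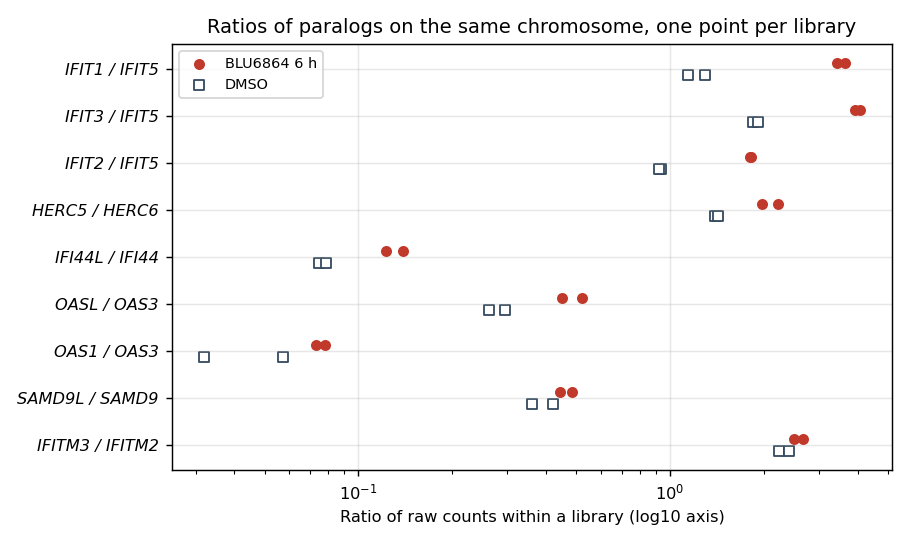
Ratio of raw counts within a library for 9 pairs of related ISGs on the same chromosome (horizontal log10 axis), with filled circles for BLU6864 and open squares for DMSO libraries. The numerator of each pair is the gene with the larger log2 fold change, so the side on which the circles lie follows from that choice. Circles and squares are at 3.45 and 3.64 against 1.14 and 1.29 for IFIT1 over IFIT5. For IFITM3 over IFITM2 they are at 2.50 and 2.68 against 2.24 and 2.40.

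RSAD2 and CMPK2 are adjacent genes on chromosome 2 whose enzymes act together, as CMPK2 supplies a nucleotide that RSAD2 (viperin) converts into a chain terminator of viral RNA synthesis. CMPK2 (ENSG00000134326, hg19 chr2:6980701-7006766) had 36.8 and 32.8 normalized counts in BLU6864 libraries, against 7.32 and 14.2 in DMSO libraries. Its log2 fold change of 1.72 ± 0.38 was the largest of the list (adjusted p = 0.000629), on few reads and with the filter passed only through the BLU6864 libraries. RSAD2 (ENSG00000134321, hg19 chr2:7005937-7038370) had 66.2 and 65.6 normalized counts in BLU6864 libraries, against 20.1 and 36.1 in DMSO libraries. It was 2.39-fold higher (log2 fold change 1.26 ± 0.28, adjusted p = 0.000596). Neither gene overlapped between groups. Their spans share 830 bases, and for both DMSO replicate 2 lay well above DMSO replicate 1.

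IFI44L, a gene of incompletely known antiviral function, had 191 and 224 normalized counts in BLU6864 libraries, against 101 and 128 in DMSO libraries. The groups did not overlap, and IFI44L rose with a log2 fold change of 0.88 ± 0.17 (adjusted p = 0.000126). Its neighbor IFI44 had 1564 and 1612 normalized counts in BLU6864 libraries, against 1346 and 1623 in DMSO libraries. The DMSO libraries enclosed the BLU6864 ones and IFI44 was not called (0.10 ± 0.11, adjusted p = 0.474), although without DMSO replicate 2 it passed the test (adjusted p = 0.0227).

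ISG20, an exonuclease that degrades single-stranded RNA, was the effector that fell. It had 414 and 402 normalized counts in BLU6864 libraries, against 519 and 520 in DMSO libraries. Replicates nearly coincided, and the log2 fold change was -0.34 ± 0.12 (adjusted p = 0.0228). Adjusted p over the alternatives ranged from 0.00862 to 0.258, and the call did not hold when BLU6864 replicate 1 (0.171) or replicate 2 (0.258) was left out, with upper-quartile scaling (0.0509) or with DESeq2 (0.0750).

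The IFITM proteins, membrane proteins that hinder the fusion of viruses with cells, were not called. IFITM3, the most highly expressed ISG per length, had 3674 and 3489 normalized counts in BLU6864 libraries, against 3281 and 3136 in DMSO libraries. The groups did not overlap but were close (log2 fold change 0.16 ± 0.11, adjusted p = 0.222). IFITM2 had 1470 and 1304 normalized counts in BLU6864 libraries, against 1467 and 1304 in DMSO libraries, which is a log2 fold change of 0.00. IFITM1, whose span lies within that of IFITM2, had 14 and 6 reads in BLU6864 libraries, against 6 and 11 in DMSO libraries, and its groups overlapped. Other effectors that act on virus particles were low and not called. BST2 (tetherin), which holds budding virions at the cell surface, had 22 and 19 reads in BLU6864 libraries, against 17 and 24 in DMSO libraries. MX1, a GTPase that traps viral nucleocapsids, had 29 and 38 reads in BLU6864 libraries, against 32 and 23 in DMSO libraries. At these depths a moderate difference in IFITM1, BST2 or MX1 was not detectable.

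For IFI6 and IFI27, the outcome depended on which DMSO library was used. IFI6, an inhibitor of apoptosis and of flavivirus replication, had 1182 and 1070 normalized counts in BLU6864 libraries, against 789 and 1329 in DMSO libraries. The BLU6864 values lay between the DMSO values, and the log2 fold change was 0.10 ± 0.15 (adjusted p = 0.632). Without DMSO replicate 1 it was -0.24 (adjusted p = 0.0283), and without DMSO replicate 2 it was 0.51 (adjusted p = 4.1e-05). IFI27 had 120 and 139 normalized counts in BLU6864 libraries, against 84.2 and 198 in DMSO libraries. Its log2 fold change was -0.09 ± 0.24 (adjusted p = 0.781), with -0.61 (adjusted p = 0.00135) without DMSO replicate 1 and 0.62 (adjusted p = 0.00836) without DMSO replicate 2. No direction can be given for either gene.

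TRIM22, a ubiquitin ligase that lies within the span of TRIM5, had 58.8 and 73.1 normalized counts in BLU6864 libraries, against 36.6 and 61.3 in DMSO libraries. DMSO replicate 2 reached into the BLU6864 range, and TRIM22 was not called (log2 fold change 0.46 ± 0.25, adjusted p = 0.144) except without that library (0.85, adjusted p = 0.0116). The paralogs SAMD9L and SAMD9, which restrict poxviruses, had log2 fold changes of 0.21 ± 0.12 and -0.05 ± 0.11 and were not called. XAF1, a proapoptotic gene, had 7 and 2 reads in BLU6864 libraries and 0 in both DMSO libraries. MX2 had 2 and 3 reads in BLU6864 libraries, against 1 and 4 in DMSO libraries.

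Among the regulators, the transcription factors IRF7 and IRF9 and the PARP9, DTX3L and PARP14 group rose. PARP9 and DTX3L form a complex that adds ubiquitin and ADP-ribose, and PARP14 is a related ADP-ribosyltransferase, all encoded close together on chromosome 3. PARP9 (ENSG00000138496, hg19 chr3:122246771-122283424) had 1620 and 1462 normalized counts in BLU6864 libraries, against 872 and 964 in DMSO libraries. Without overlap, its log2 fold change was 0.75 ± 0.11 (adjusted p = 3.28e-06). DTX3L (ENSG00000163840, hg19 chr3:122283085-122294050) had 1928 and 1779 normalized counts in BLU6864 libraries, against 1456 and 1361 in DMSO libraries. It rose less than its partner, at 0.40 ± 0.11 (adjusted p = 0.00327), and the difference between the 2 changes was not tested. PARP14 (ENSG00000173193, hg19 chr3:122399465-122449687) had 4836 and 4414 normalized counts in BLU6864 libraries, against 3553 and 3089 in DMSO libraries. It had the most counts of the regulators and a log2 fold change of 0.48 ± 0.11 (adjusted p = 0.00102). PARP9 and DTX3L share 340 bases of span. Leaving out BLU6864 replicate 1 (0.139) or replicate 2 (0.0591) ended the call of DTX3L, and leaving out BLU6864 replicate 1 (0.0757) ended that of PARP14, while adjusted p over the alternatives ranged from 1.78e-05 to 0.139 for DTX3L and from 1.11e-07 to 0.0757 for PARP14.

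IRF7, the factor that drives the amplifying wave of interferon production, had 822 and 749 normalized counts in BLU6864 libraries, against 521 and 501 in DMSO libraries. It was 1.54-fold higher without overlap (log2 fold change 0.62 ± 0.12, adjusted p = 9.4e-05). IRF9, the DNA-binding part of ISGF3, had 43.1 and 52.5 normalized counts in BLU6864 libraries, against 24.7 and 33.9 in DMSO libraries. The groups did not overlap and IRF9 was called (0.73 ± 0.28, adjusted p = 0.0386). This call was lost without BLU6864 replicate 1 (0.0941), BLU6864 replicate 2 (0.374) or DMSO replicate 1 (0.239), and with limma-voom (0.0513) or DESeq2 (0.241), where adjusted p over the alternatives ranged from 0.0176 to 0.374. The span of IRF9 lies wholly within that of another listed gene, known by a clone name, which had 45 reads in all.

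ISG15 is a ubiquitin-like protein that is attached to other proteins, HERC5 is the main ligase for this step, and USP18 removes ISG15 and damps interferon receptor signaling. HERC5 had 795 and 670 normalized counts in BLU6864 libraries, against 501 and 526 in DMSO libraries. It rose with a log2 fold change of 0.52 ± 0.12 (adjusted p = 0.00108), which did not hold when BLU6864 replicate 1 was left out (0.106, in a range over alternatives that starts at 5.13e-05). ISG15 had 849 and 865 normalized counts in BLU6864 libraries, against 691 and 770 in DMSO libraries. The groups did not overlap, but ISG15 did not pass the test (0.24 ± 0.11, adjusted p = 0.0941), except with upper-quartile scaling (0.0405) and without DMSO replicate 2 (0.00964). USP18 had 85.1 and 89.0 normalized counts in BLU6864 libraries, against 91.5 and 93.0 in DMSO libraries (-0.08 ± 0.19, adjusted p = 0.768). HERC6 likewise differed little, at -0.06 ± 0.13 (adjusted p = 0.708). IFI35, which binds NMI in the regulation of innate signaling, had 1163 and 1115 normalized counts in BLU6864 libraries, against 890 and 847 in DMSO libraries. It rose by a log2 fold change of 0.39 ± 0.11 (adjusted p = 0.00445), which was lost without BLU6864 replicate 1 (0.114) or replicate 2 (0.0852), with a range from 0.00014 to 0.114.

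**Figure D3:**
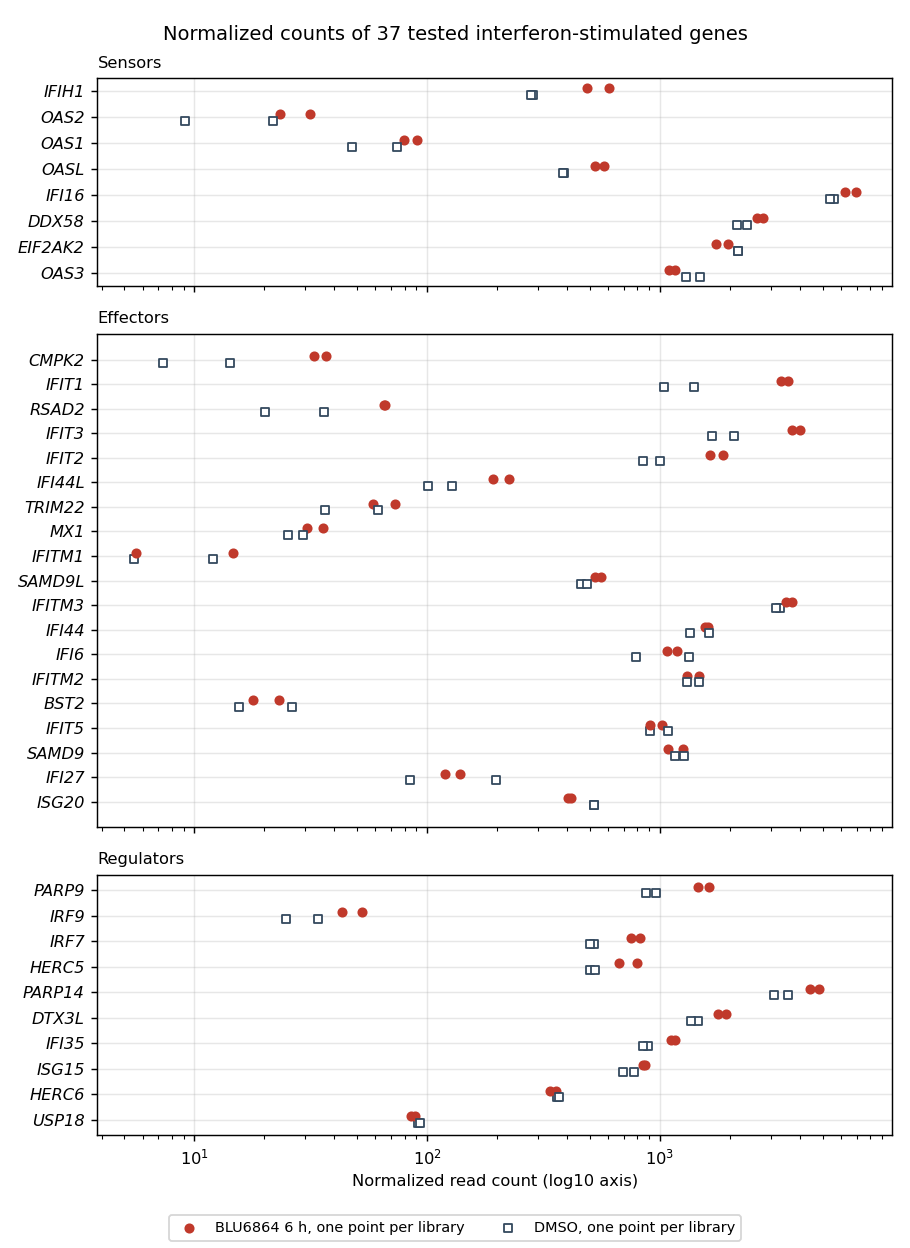
Normalized read counts of the 37 tested ISGs in each library (horizontal log10 axis), in panels for sensors, effectors and regulators, with filled circles for BLU6864 and open squares for DMSO. IFIT1 has circles at 3529 and 3302 and squares at 1037 and 1404, whereas the squares of IFI6, at 789 and 1329, and of IFI27, at 84.2 and 198, lie on both sides of the circles.

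Among the sensors, the RNA receptors IFIH1 and DDX58 were called higher. IFIH1 (MDA5; ENSG00000115267, hg19 chr2:163123589-163175213), which senses long double-stranded RNA, had 604 and 486 normalized counts in BLU6864 libraries, against 286 and 279 in DMSO libraries. It was 1.93-fold higher without overlap (log2 fold change 0.95 ± 0.13, adjusted p = 1.74e-06). DDX58 (RIG-I), which senses short RNA with a 5′ triphosphate, had 2765 and 2609 normalized counts in BLU6864 libraries, against 2139 and 2360 in DMSO libraries. The groups did not overlap and DDX58 was called near the threshold (0.26 ± 0.11, adjusted p = 0.048). This call was lost without BLU6864 replicate 1 (0.386), BLU6864 replicate 2 (0.272) or DMSO replicate 1 (0.107), with DESeq2 (0.0724) and without a filter on low counts (0.0601), where adjusted p ranged from 0.00234 to 0.386. The ratio of IFIH1 to DDX58 raw counts was 0.218 and 0.186 in BLU6864 libraries, against 0.134 and 0.118 in DMSO libraries. DHX58 (LGP2), the member of this family without signaling domains, had 4 and 3 reads in BLU6864 libraries, against 1 and 8 in DMSO libraries.

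The OAS genes, whose enzymes answer double-stranded RNA by making the activator of RNase L, did not move together. OAS3, which makes much of this activator in human cells, had 1095 and 1165 normalized counts in BLU6864 libraries, against 1486 and 1297 in DMSO libraries. It fell without overlap, with a log2 fold change of -0.30 ± 0.11 (adjusted p = 0.0304). This call was lost without BLU6864 replicate 1 (0.340), BLU6864 replicate 2 (0.203) or DMSO replicate 1 (0.0799), and with upper-quartile scaling (0.0686) or DESeq2 (0.0609), where adjusted p ranged from 0.000316 to 0.340. OASL, a relative without enzyme activity that enhances RIG-I signaling, had 573 and 524 normalized counts in BLU6864 libraries, against 389 and 384 in DMSO libraries. It rose by a log2 fold change of 0.51 ± 0.12 (adjusted p = 0.00145), lost only without BLU6864 replicate 1 (0.0694) among the alternatives at this threshold, with the lowest at 0.00012. OAS1 had 79.9 and 90.9 normalized counts in BLU6864 libraries, against 47.6 and 74.4 in DMSO libraries, and was not called (0.51 ± 0.22, adjusted p = 0.069). OAS2 had 30 and 25 reads in BLU6864 libraries, against 10 and 20 in DMSO libraries, and was not called (0.86 ± 0.39, adjusted p = 0.0779). Without DMSO replicate 2 both passed the test, at 0.85 (adjusted p = 0.0045) for OAS1 and 1.56 (adjusted p = 0.00945) for OAS2. For both genes DMSO replicate 1 was far below DMSO replicate 2. OAS1 also passed with the replicate number as a block (0.0469) and without a filter on low counts (0.0431).

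IFI16, a nuclear sensor of DNA, had the most counts of the sensors, with 6966 and 6246 normalized counts in BLU6864 libraries, against 5614 and 5392 in DMSO libraries. The groups did not overlap, and the log2 fold change of 0.27 ± 0.11 did not pass the test (adjusted p = 0.058). It was called in 6 of the 11 alternatives that keep this threshold, with adjusted p between 0.0177 and 0.508, among them those without DMSO replicate 1 (0.0177) and replicate 2 (0.0462). EIF2AK2 (PKR), the kinase that halts translation when it binds double-stranded RNA, had 1955 and 1746 normalized counts in BLU6864 libraries, against 2173 and 2163 in DMSO libraries. It lay lower in both BLU6864 libraries without passing the test (-0.22 ± 0.10, adjusted p = 0.0868), and passed it without DMSO replicate 1 (0.0348) or replicate 2 (0.0267).

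Replicates of either group were not alike in their ISG levels. DMSO replicate 2 lay above DMSO replicate 1 for 24 of the 37 tested ISGs, with a median log2 ratio of 0.14, against 5814 of 12683 genes and a median of -0.03 over all tested genes without a 0. Between the BLU6864 libraries replicate 2 lay above replicate 1 for 10 of the 37, with a median log2 ratio of -0.12, against 6081 of 12683 genes and a median of -0.01. The BLU6864 libraries thus also differed in their ISG levels, in the opposite direction by replicate number. The log2 ratio of DMSO replicate 2 to replicate 1 was 1.26 for OAS2, 1.23 for IFI27, 1.13 for IFITM1, 0.96 for CMPK2, 0.84 for RSAD2, 0.76 for BST2, 0.75 for IFI6 and 0.44 for IFIT1. It was -0.06 for IRF7 and -0.03 for IFIH1.

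Matches to the ISRE were present in similar shares of ISGs that rose and ISGs that did not. A match was found in 9 of 13 higher ISGs with a promoter entry (69.2%), in 11 of 15 that were not called (73.3%) and in both that fell. The median log2 fold change was 0.23 over the 22 tested ISGs with a match and 0.33 over the 8 without. CMPK2, IRF9, IFI35 and DDX58 rose with no ISRE match in their windows. IFIT5, whose window holds 3 matches, and IFI6, also with 3, were not called. These counts are a description, as the window covers little of each gene's regulatory sequence.

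The STAT dimer element (GAS) was searched as TTC, any 3 bases and GAA, which is its own reverse complement. It was found for 8 of the 31 genes (25.8%), against 9.38% of the 27305 genes and 7.66% of the 35116 promoters, and the 8 were MX1, IFITM1, BST2, IFI27, IRF9, PARP14, IFI35 and OAS1. Of these, IRF9, PARP14 and IFI35 rose. In BST2 and MX1 the element overlapped an ISRE match, likewise in IFI27 and IFITM1. No promoter entry was matched for IFIT2, TRIM22, IFITM2, MX2, IRF7, USP18, OAS2, OASL and DHX58.

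**Figure D4:**
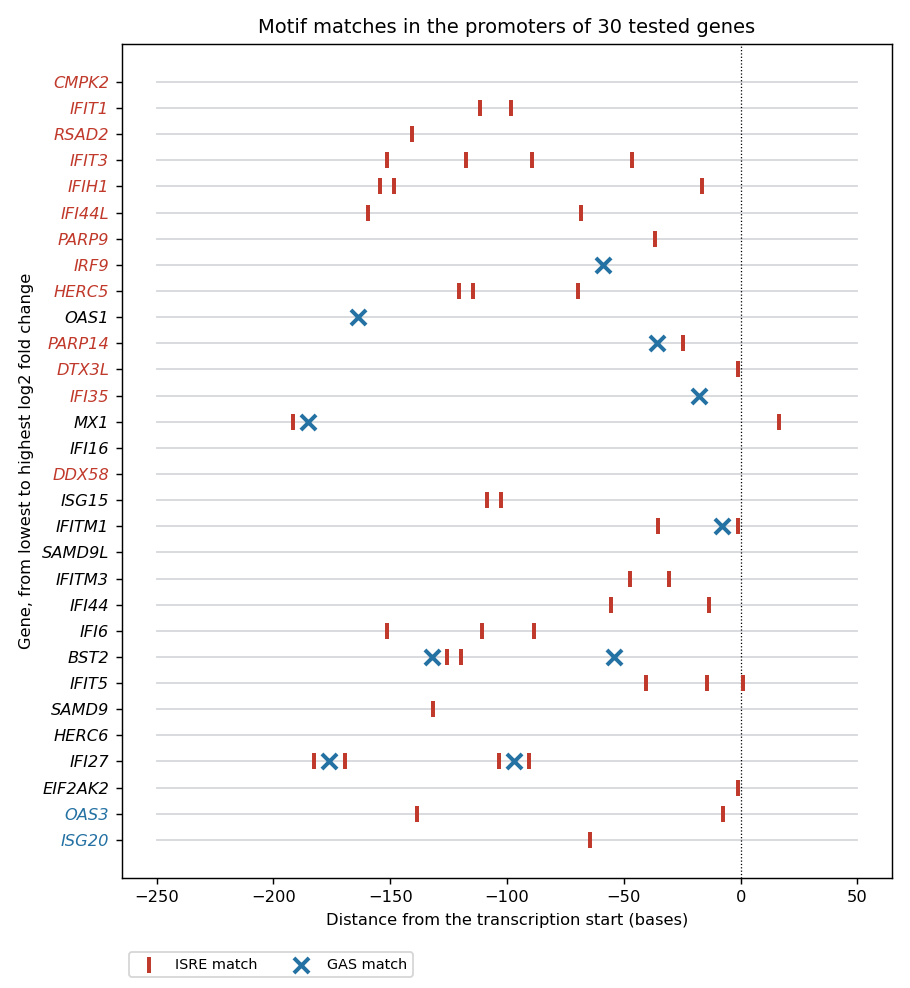
Position of ISRE (bars) and GAS (crosses) matches relative to the transcription start (horizontal axis, bases) in the promoter windows of 30 tested ISGs, ordered by log2 fold change with the highest at the top. Gene names are red where higher, blue where lower and black where not called, and genes with several listed starts, such as IFIT3, MX1, IFI44 and IFI27, show the matches of each start on 1 line. Matches occur from top to bottom, and CMPK2, at the top, has none.

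Upstream of the ISGs, the transcripts of the receptors and of STAT2 were higher, and those of the kinases were not called. A list of interferon pathway genes had 28 members with enough reads to test, of which 9 were higher and 2 were lower (32.1% and 7.14%, against 20.3% and 22.0% of all tested genes). In either direction 39.3% were called, near the 42.2% of all tested genes. In all, 5 of 6 receptor genes rose. IFNAR1, a chain of the type I receptor, had 4101 and 4075 normalized counts in BLU6864 libraries, against 2999 and 3170 in DMSO libraries. Its partner IFNAR2 had 1896 and 1927 in BLU6864 libraries, against 1433 and 1584 in DMSO libraries. These differences, without overlap, were 0.41 ± 0.11 (adjusted p = 0.00273) for IFNAR1 and 0.35 ± 0.10 (adjusted p = 0.00929) for IFNAR2 on the log2 scale. IFNGR1, the ligand-binding chain of the receptor for type II interferon, had 4129 and 4277 normalized counts in BLU6864 libraries, against 2185 and 2745 in DMSO libraries, a log2 fold change of 0.78 ± 0.11 (adjusted p = 4.49e-06). IFNGR2 (0.34 ± 0.11, adjusted p = 0.0176) and IL10RB (0.40 ± 0.10, adjusted p = 0.003) were also higher, while IFNLR1 was not called (-0.08 ± 0.15, adjusted p = 0.704). The calls of IFNAR1, IFNAR2, IFNGR2 and IL10RB, but not that of IFNGR1, did not hold when BLU6864 replicate 1 was left out (adjusted p = 0.0811, 0.118, 0.167 and 0.0741 in that order) or BLU6864 replicate 2 was left out (0.108, 0.207, 0.278 and 0.117). They were also lost at the study's threshold, applied here in both directions, which asks for a log2 fold change beyond 0.5. Without BLU6864 replicate 1 the list had 5 genes called higher, when 11.7% of all tested genes were, and without BLU6864 replicate 2 it had 4, when 9.75% were.

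STAT2, the ISGF3 subunit particular to type I and III signaling, had 3059 and 2798 normalized counts in BLU6864 libraries, against 1448 and 1572 in DMSO libraries. Both BLU6864 values lay above the DMSO values. With a log2 fold change of 0.96 ± 0.11 (adjusted p = 4.1e-08) its change lay close to those of IFIT2 (0.92) and IFIH1 (0.95). JAK2, a kinase of the type II receptor, had 538 and 542 normalized counts in BLU6864 libraries, against 671 and 596 in DMSO libraries. Despite lying below in both BLU6864 libraries, JAK2 was not called (-0.23 ± 0.12, adjusted p = 0.123), except without DMSO replicate 2 (-0.31, adjusted p = 0.0122). JAK1 (-0.04 ± 0.11) and TYK2 (0.08 ± 0.10) were not called, and nor were IRF1 (0.10 ± 0.11) and IRF3 (-0.11 ± 0.11), with adjusted p between 0.42 and 0.809. Of 8 tested genes of the induction branch 2 were higher and 1 was lower (25.0% and 12.5%, against 20.3% and 22.0% of all tested genes). In either direction 37.5% were called, below the 42.2% of all tested genes. The endosomal RNA receptor TLR3 (0.63 ± 0.12, adjusted p = 0.000103) and its adaptor TICAM1 (0.64 ± 0.12, adjusted p = 0.000102) rose. MB21D1 (cGAS), the cytosolic DNA sensor, fell, with 388 and 449 normalized counts in BLU6864 libraries, against 625 and 667 in DMSO libraries (-0.62 ± 0.12, adjusted p = 0.000185).

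SOCS1, a feedback inhibitor of JAK kinases, gave the largest change of the pathway. It had 370 and 379 normalized counts in BLU6864 libraries, against 2004 and 1732 in DMSO libraries. All BLU6864 values lay far below the DMSO values, and SOCS1 fell by 2.31 on the log2 scale, with an SE of 0.12 (adjusted p = 1.03e-14). PTPN2, a phosphatase that acts on JAK and STAT proteins, rose (0.47 ± 0.11, adjusted p = 0.00145), which did not hold when BLU6864 replicate 2 was left out (0.0678) or at the study's threshold.

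Of the interferon genes, all but IFNE had at most 4 reads in a library. IFNB1 had 3 and 2 reads in BLU6864 libraries, against 2 and 0 in DMSO libraries, and IFNA1 had 1 and 4 in BLU6864 libraries, against 1 and 3 in DMSO libraries. IFNA2, IFNK, IFNG, IFNL1, IFNL2 and IFNL3 had no read in any library, and a count of 0 allows up to 3 reads in a library. IFNE was the only interferon tested. It had 43.1 and 54.3 normalized counts in BLU6864 libraries, against 37.5 and 65.7 in DMSO libraries (-0.05 ± 0.27, adjusted p = 0.901).

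**Figure D5:**
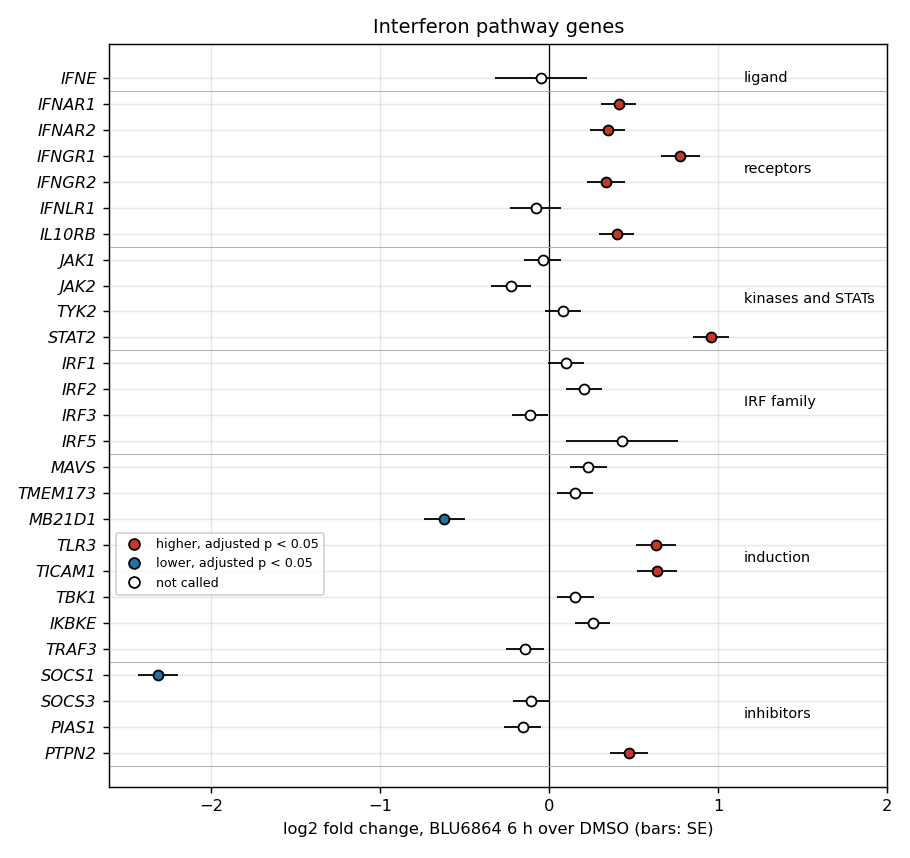
Log2 fold change of tested interferon pathway genes, BLU6864 at 6 h over DMSO (horizontal axis, lines are SE), grouped from ligand to inhibitors, filled red where higher, blue where lower and white where not called. SOCS1 lies at -2.31, STAT2 at 0.96 and JAK1 at -0.04.

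A second list of 45 interferon-response genes outside the 40 showed calls in both directions. Of its 36 tested genes 13 were higher and 6 were lower (36.1% and 16.7%, against 20.3% and 22.0% of all tested genes), and the median log2 fold change was 0.15. The guanylate-binding proteins GBP2 and GBP1, GTPases typical of the response to type II interferon, also rose, whereas the other GBP genes of the list did not pass the test or had too few reads. GBP2 had 5169 and 4362 normalized counts in BLU6864 libraries, against 1382 and 1348 in DMSO libraries, a 3.50-fold difference (1.81 ± 0.11, adjusted p = 7.46e-13). GBP1 had 1552 and 1448 normalized counts in BLU6864 libraries, against 629 and 684 in DMSO libraries (1.20 ± 0.11, adjusted p = 1.36e-09). GBP3 had 3197 and 3347 normalized counts in BLU6864 libraries, against 2717 and 3272 in DMSO libraries, and these overlapped (0.13 ± 0.11, adjusted p = 0.352). It was called higher only without DMSO replicate 2 (0.27, adjusted p = 0.0124). GBP4 had 8 and 1 reads in BLU6864 libraries, against 3 and 3 in DMSO libraries, and GBP5 had 6 and 7 in BLU6864 libraries, against 7 and 9 in DMSO libraries, both too few to test. The death ligand TNFSF10, at 1269 and 1158 normalized counts in BLU6864 libraries and 105 and 155 in DMSO libraries, and TRIM25, the ligase that acts on RIG-I (0.66 ± 0.11, adjusted p = 3.59e-05), were higher as well. The chemokine CXCL10 had 17 and 21 reads in BLU6864 libraries, against 0 and 2 in DMSO libraries. CXCL10 passed the filter on low counts only through the BLU6864 libraries. Its place among the higher genes of the list therefore depends on the group in which it is high. Lower genes included the paralogous helicases DDX60L (-0.63 ± 0.11, adjusted p = 5.52e-05) and DDX60 (-0.56 ± 0.11, adjusted p = 0.000319), and WARS, the tryptophanyl-tRNA synthetase (-0.54 ± 0.11, adjusted p = 0.000202). Without either BLU6864 library 8 genes of the list were higher and 3 were lower, when 11.7% and 12.5% of all tested genes were without BLU6864 replicate 1, and 9.75% and 11.6% without BLU6864 replicate 2. DDX60 was not called when BLU6864 replicate 2 was left out (adjusted p = 0.0649). CXCL10, DDX60, DDX60L, WARS and the other GBP genes were picked after their values were seen.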

How the data were processed

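RNA sequencing was compared between 2 BLU6864 (6 h) and 2 DMSO libraries of TPC1 cells, grouped by their labels. Per the labels, total RNA gave TruSeq libraries and single-end HiSeq reads. The submitters' processing notes name STAR 2.3, hg19 and DESeq2. The counting tool, annotation release and strand setting are not given in those sources. The study's methods instead give paired-end reads and a later STAR version, so the read layout and aligner version are not settled. The authors deposited raw counts per gene and library, with totals between 23750509 and 28305571. They also deposited normalized counts, a signal in which each count was divided by 1 DESeq2 size factor per library, and these are the levels printed. The table further holds the authors' mean levels, log2 fold changes with SE, test statistic and p-values with and without adjustment, which were not used.

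The quasi-likelihood F test of edgeR 4.0.16 (two-sided, R 4.3.3, TMM factors) was applied to the counts that passed filterByExpr, those of 12696 genes, with Benjamini-Hochberg adjustment and calls at an adjusted p under 0.05. The filter asked for a CPM of about 0.394 in 2 libraries. The SE was derived from the F statistic. The procedure was also run on simulated counts, with levels and a spread common to all genes taken from these libraries. The outcome of that run is not given here. Alternatives were RLE or upper-quartile scaling, no filter on low counts, a filter at a CPM of 1 in 2 libraries, DESeq2 1.42.0, limma-voom 3.58.1, the replicate number as a block, leaving out each library, and the study's threshold (log2 fold change beyond 0.5 with p under 0.01, taken unadjusted). The study states this threshold for lower genes only, and here it was applied in both directions.

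The 40 genes, the lists and the pairs of paralogs were chosen with earlier results of these data known. By rule, values were given in full for up to 12 called ISGs with the largest change, the 2 with most counts per role, and every ISG whose call changed under an alternative. From each further list the rule named up to 4 called genes with the smallest adjusted p, and in any case IFNAR1, IFNAR2, JAK1, TYK2, STAT2, IRF1, IRF3, the interferon genes and RET. Other genes of these lists were named after their values were seen, and a few listed genes are not reported here. Gene coordinates are those of the deposited table (hg19). Lengths for levels per kb were the merged exons of GENCODE on GRCh38, and promoter sequences came from RefSeq on GRCh38.p14.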

Additional observations from a re-analysis of the deposited data

How the results depend on the processing

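Between 15 and 18 ISGs were higher under RLE or upper-quartile scaling, either other filter, the replicate block, DESeq2 and limma-voom. These were 40.5% to 50.0% of the ISGs tested in each setting, where 14.5% to 24.0% of all tested genes were higher. At the study's threshold 11 ISGs were higher, and DDX58, DTX3L, PARP14, IFI35 and IRF9 lost the call. The number of lower ISGs was 0 under upper-quartile scaling, DESeq2 and the study's threshold, where 2 were called otherwise. At the study's threshold 1397 of all tested genes were higher and 1584 were lower, against 2574 and 2790 at an adjusted p under 0.05, and 4 pathway genes were higher, with 7 genes of the second list higher and 3 lower. With 1 library left out, where the lone library is assumed to vary like the other group, 9 to 24 ISGs were higher and 0 to 4 lower, 1250 to 3311 of all genes were higher and 1490 to 3621 lower, 4 to 13 pathway genes were higher and 2 to 4 lower, and 8 to 16 genes of the second list were higher and 3 to 8 lower. IFI6 turned to -0.24 without DMSO replicate 1 and was 0.51 without DMSO replicate 2, and IFI27 was -0.61 and 0.62. The causes of these differences were not tested. The median log2 fold change of the ISGs was 0.28 with RLE and 0.33 with upper-quartile scaling.

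With the replicate block 18 ISGs were higher and 2 lower, and of all genes 2924 were higher and 3039 lower. IFI16 and OAS1 gained a call. The labels do not say what shares a replicate number, and the correlation of the replicate differences between the groups was 0.142 over 12696 genes, from 2 pairs, so the numbers were not taken to pair the libraries.

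Depth limits the low ISGs, as CMPK2, which was called, and OAS2, MX1, BST2 and IFITM1 had at most 38 reads in a library. A gene under the filter on low counts was not tested. With 2 libraries per group, each call rests on the spread shared across genes.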
